A study of Homo sapiens with 11 samples.

Results

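The 9 genes described here encode proteins that receive and pass on an interferon signal: the receptor chains IFNAR1, IFNAR2 and IFNGR1, the kinases JAK1 and TYK2, and the transcription factors STAT2, IRF1, IRF7 and IRF9. They were taken by name from 61542 genes with summed reads, with earlier results of these data known. All 9 were among the 17033 genes with enough reads to be tested. RNA was sequenced from SK-MEL103, a human melanoma cell line, after 6 days of vehicle or drug, with fresh medium and fresh drug on day 3. The groups were 4 samples given the vehicle DMSO and labelled non-senescent, 4 samples given etoposide at 0.25 µM, and 3 samples given tozasertib at 0.5 µM, numbered 1, 2 and 4. Etoposide traps topoisomerase II on cut DNA and tozasertib inhibits the Aurora kinases of mitosis, and both drug groups were labelled senescent. All samples came from 1 cell line, so differences between lines cannot be seen in these data.

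Type I interferons bind a receptor made of IFNAR1 and IFNAR2, which holds the kinases TYK2 and JAK1, while interferon gamma binds IFNGR1 with IFNGR2 and uses JAK1 and JAK2. The kinases phosphorylate STAT proteins. STAT2 joins IRF9 in the complex ISGF3, which binds the interferon-stimulated response element, and STAT pairs bind the gamma-activated site. IRF1 and IRF7 are transcription factors of the interferon regulatory family, themselves known as interferon-inducible, and IRF7 is known for driving interferon genes once it is phosphorylated.

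Each sample held between 27787869 and 56331768 reads assigned to genes. Values below are CPM, read counts relative to library size after scaling by the trimmed mean of M values (TMM), unless TPM, which also divides by transcript length, is named. SOX10, a transcription factor of the melanocyte lineage, was at a mean of 514 CPM in DMSO, 323 in etoposide and 380 in tozasertib, while the pigment cell gene MLANA was at 0 reads in every sample and TYR, TYRP1 and DCT had means of 0.317 CPM or less in every group. Of the 10 melanocyte markers 5 could be tested. In etoposide MITF and S100B were higher and SOX10 and PAX3 lower than in DMSO. In tozasertib PMEL (log2 3.57, adjusted p = 9.79e-07), S100B and MITF were higher and SOX10 and PAX3 lower. PMEL was low, with means of 0.326 CPM in DMSO, on 6 to 17 reads a sample, and 3.86 in tozasertib. S100B was low too, with means of 1.18 CPM in DMSO and 3.31 in tozasertib. Of 8 immune markers, 6 had a mean under 0.1 CPM over all samples, among them the T cell gene CD3E, the B cell gene MS4A1 and the plasmacytoid dendritic cell gene CLEC4C, and the list's summed level lay between 55.9 and 68.4 CPM in DMSO, 34.7 and 42.3 in etoposide and 43.2 and 48.2 in tozasertib, nearly all of it CD68, a lysosomal gene. Of 7 fibroblast markers 1 had a mean under 0.1 CPM, and the list's summed level was 49.7 to 58.4 CPM in DMSO, 154.8 to 171.3 in etoposide and 135.6 to 140.8 in tozasertib. The rise lay mainly in LUM, with means of 23.1, 106 and 102 CPM, and COL1A1, with 3.64, 36.2 and 18.8. TWIST2 went the other way, with 25.5, 17.5 and 16.4. Of the 6 tested, 3 were higher and 1 lower in etoposide, and 4 higher and 1 lower in tozasertib. Of all genes tested, 27.7% were called higher and 30.6% lower in etoposide, and 29.9% and 29.4% in tozasertib. The part of other cell types in the results was not tested, and in bulk RNA fewer cells of a type and less RNA per cell cannot be told apart. Among the DMSO samples, the deviation of a gene from its group mean followed its length with a Spearman rho of -0.514 over 17033 genes in DMSO 1. The rho was 0.147, 0.251 and 0.442 in DMSO 2, 3 and 4, against values between -0.073 and 0.12 in the drug samples.

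The interferons themselves, the ligands of these receptors, were almost without reads. Of 22 interferon genes looked up, 18 had 0 reads in every sample, among them all 13 IFNA genes, IFNG, IFNL3 and IFNL4, and none had enough reads to be tested. IFNB1, which encodes interferon beta, had 7 reads in tozasertib 1, 1 in tozasertib 2 and 3 in tozasertib 4, and 0 reads in each of the 4 DMSO and the 4 etoposide samples. The tozasertib samples thus carried IFNB1 reads and no other sample did. The 11 reads in 119852882 gave 0.0918 CPM without scaling (exact Poisson 95% interval 0.0458 to 0.164), which was at least 3.75-fold higher than in DMSO and at least 4.13-fold higher than in etoposide when a count of 0 is taken as allowing up to 3 reads over the group. These bounds leave out the counting error of the 11 reads, and from the lower end of their interval they are 1.87-fold and 2.06-fold. That floor is 0.0245 CPM in DMSO and 0.0222 in etoposide, and intervals and floors here cover counting error only. Of the interferon lambda genes, IFNL1 had 1 read in etoposide 1 and 1 read in each tozasertib sample, which is 0.025 CPM in tozasertib (0.00516 to 0.0732) beside 0.0074 in etoposide (0.000187 to 0.0412). IFNL2 had 1 read, in tozasertib 2. The IFNL counts overlapped between groups within their counting intervals. IFNE, which encodes interferon epsilon, had 11 reads in DMSO, 13 in etoposide and 13 in tozasertib, with overlapping counting intervals.

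Each drug was then compared with DMSO, and the drugs with each other, to see which steps of the pathway changed at the level of RNA. With edgeR's quasi-likelihood test and an adjusted p below 0.05 over all genes tested, 4 of the 9 genes were higher and 3 lower in etoposide than in DMSO. Across all genes 58.3% were called in that comparison, 27.7% higher and 30.6% lower, so a call by itself sets no member apart. In tozasertib against DMSO 4 were higher and 2 lower, where 59.2% of all genes were called, 29.9% higher and 29.4% lower. Between the drugs 3 were higher in tozasertib and the other 6 did not pass the test, where 11.1% of all genes were called, 5.66% higher and 5.45% lower. When the drug samples alone were fitted with the replicate number as a block, 4594 genes were called between the drugs in place of 1893, and the same 3 members. The count over all genes also rose when the drug samples alone were fitted without the block. It fell with the block over all 11 samples. The median log2 fold change of the 9 genes was 0.01, 0.15 and 0.06 in the 3 comparisons, beside -0.012, 0.023 and 0.0083 over all genes tested. The 2 comparisons with DMSO share the same 4 control samples. Nothing in the labels says that the samples of a group came from separate cultures, so the p-values reflect only how much these samples vary, and that variation may be technical.

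**Figure D1:**
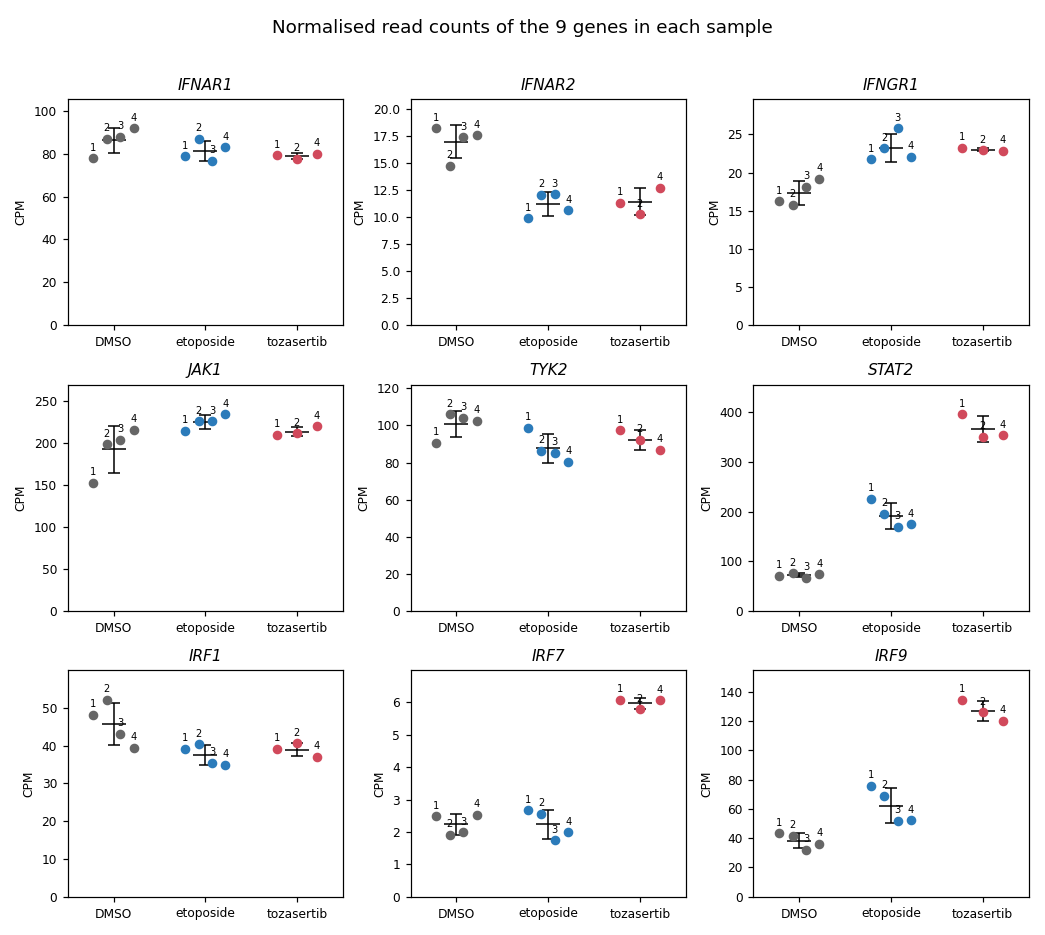
Normalised read counts (CPM, from 0) of the 9 genes in each of 11 samples, with the sample number beside each point and the mean ± SD of each group as a black bar. STAT2 and IRF9 rise in steps from DMSO through etoposide to tozasertib, IRF7 is high in the 3 tozasertib samples alone, and the receptor chains and kinases move less.

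The receptor chains moved in different directions and by similar amounts under both drugs. IFNAR2, the chain that binds type I interferon most tightly, fell under both, IFNGR1, the ligand-binding chain for interferon gamma, rose under both, and IFNAR1 did not pass the test under either. IFNAR2 (chr21:33205282-33265675, plus strand, GRCh38) was at 18.2, 14.8, 17.4 and 17.6 CPM in DMSO 1 to 4, 9.90, 12.1, 12.1 and 10.7 in etoposide 1 to 4, and 11.4, 10.3 and 12.7 in tozasertib 1, 2 and 4. Every drug sample lay below every DMSO sample, while the drug groups overlapped each other. The log2 fold change was -0.60 (SE 0.099, adjusted p = 0.000161) in etoposide and -0.57 (SE 0.107, adjusted p = 0.000504) in tozasertib. A read-through gene, IFNAR2-IL10RB, shares exons with IFNAR2 and held between 0% and 13.1% of their joint reads in a sample, and adding its reads to IFNAR2 changed no call.

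IFNGR1 (chr6:137197483-137219449, minus strand) was at 16.2, 15.8, 18.1 and 19.2 CPM in DMSO, 21.7, 23.2, 25.8 and 22.1 in etoposide, and 23.3, 22.9 and 22.9 in tozasertib. All 7 drug samples stood above the 4 DMSO samples. IFNGR1 changed by 0.42 on the log2 scale in etoposide (SE 0.079, adjusted p = 0.000456) and by 0.41 in tozasertib (SE 0.084, adjusted p = 0.000961). IFNGR2, its partner chain, went the other way, with -0.32 (adjusted p = 0.000157) and -0.34 (adjusted p = 0.000194). The chains of the interferon gamma receptor thus changed in opposite directions under each drug.

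IFNAR1 (chr21:33324387-33359864, plus strand) was at 77.9, 87.0, 88.1 and 91.9 CPM in DMSO, 78.8, 86.9, 76.7 and 83.0 in etoposide, and 79.4, 77.6 and 80.1 in tozasertib. The groups overlapped, since DMSO 1 lay among the drug samples. The log2 fold change was -0.08 (95% interval -0.23 to 0.06, adjusted p = 0.252) in etoposide and -0.13 (-0.28 to 0.03, adjusted p = 0.118) in tozasertib. Without DMSO 1 it was -0.13 (adjusted p = 0.0327) in etoposide and -0.18 (adjusted p = 0.0112) in tozasertib, both past the threshold. Between the drugs no receptor chain differed past the threshold, with intervals of -0.19 to 0.11 for IFNAR1, -0.21 to 0.28 for IFNAR2 and -0.20 to 0.18 for IFNGR1.

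The kinases moved little, and what was called under etoposide was lost under several other settings. JAK1 (chr1:64833223-65067754, minus strand), the kinase common to both receptors, was at 151.9, 198.1, 203.3 and 215.4 CPM in DMSO, 214.0, 225.4, 225.2 and 233.8 in etoposide, and 209.1, 211.1 and 219.2 in tozasertib. DMSO 1 stood well below the other DMSO samples, and DMSO 4 lay among the drug samples. The log2 fold change was 0.22 (SE 0.087, adjusted p = 0.0414) in etoposide and 0.15 (SE 0.094, adjusted p = 0.19) in tozasertib. The etoposide call was lost without DMSO 2 (0.24, adjusted p = 0.0591) and without etoposide 2 (0.22, adjusted p = 0.0783), 3 (0.22, adjusted p = 0.0757) or 4 (0.20, adjusted p = 0.0976). It was also lost without tozasertib 1, 2 or 4 (adjusted p = 0.0558, 0.0566 and 0.0552). Those samples lie outside this comparison but enter the filter, the scaling, the estimate of the spread and the adjustment. JAK1 is long, at the 83.4th percentile of effective length among tested genes, and the part of the length gradient of DMSO 1 in its low value was not tested.

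TYK2 (chr19:10350533-10380608, minus strand), the kinase held by IFNAR1, was at 90.7, 106.1, 104.1 and 102.5 CPM in DMSO, 98.6, 86.2, 85.4 and 80.4 in etoposide, and 97.5, 92.4 and 86.8 in tozasertib. Here too DMSO 1 lay among the drug samples. TYK2 changed by -0.20 on the log2 scale in etoposide (SE 0.073, adjusted p = 0.0303) and by -0.13 in tozasertib (SE 0.079, adjusted p = 0.177). The etoposide call was lost without DMSO 2, 3 or 4 (adjusted p = 0.08, 0.0668 and 0.0538) and without etoposide 2, 3 or 4 (adjusted p = 0.0629, 0.0655 and 0.0885), and tozasertib passed the threshold without DMSO 1 (-0.18, adjusted p = 0.0344). With counts scaled for transcript length the value was -0.48 in etoposide (adjusted p = 0.00825) and -0.49 in tozasertib (adjusted p = 0.0114). JAK2, the partner of JAK1 at the interferon gamma receptor, did not pass the test in any comparison, at -0.20 in etoposide and -0.02 in tozasertib, and JAK3, a kinase of lymphoid cells, had too few reads to be tested.

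The largest changes were in STAT2 and IRF9, partners in ISGF3, and, under tozasertib alone of the drugs, in IRF7. RefSeq promoter windows on GRCh38.p14, from 250 bases before to 50 after a start, were on hand for 7 of the 9 genes and not for IFNAR2 and IRF7. The windows were searched on both strands for the core letters of the interferon-stimulated response element, GAAANNGAA, found in 8.11% of 35116 windows of that length, and of the gamma-activated site, TTCNNNGAA, found in 7.66%. Among the members' 11 windows the first was found in 0 and the second in 2, those of IRF1 and IRF9, with no overlap between motifs. The stretches below show these matches in capitals, beside the bases upstream of STAT2, the gene that changed most, which hold neither. Each reads 5′ to 3′ on the gene's strand, and the IRF9 stretch is short because a read-through transcript from RNF31 has an exon there.
IRF1, chr5:132490848-132490937, minus strand, match at -124 to -116 from the start: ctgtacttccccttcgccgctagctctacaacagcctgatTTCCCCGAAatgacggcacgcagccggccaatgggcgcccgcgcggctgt
IRF9, chr14:24161192-24161220, plus strand, match at -63 to -55 from the start: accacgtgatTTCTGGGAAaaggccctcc
STAT2, chr12:56360204-56360303, minus strand, upstream of the annotated gene: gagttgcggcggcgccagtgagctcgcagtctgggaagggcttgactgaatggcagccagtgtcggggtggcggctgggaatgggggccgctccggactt
A match describes these letters only, and binding was not measured.

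STAT2 (chr12:56341597-56360203, minus strand), a STAT that serves type I and III interferon signalling, was at 71.2, 75.6, 66.4 and 73.5 CPM in DMSO. It was at 225.4, 195.1, 169.3 and 174.4 CPM in etoposide and at 396.2, 350.1 and 353.9 in tozasertib. The groups did not overlap, and etoposide 1 and 2 were the highest of their group. STAT2 was 2.67-fold higher in etoposide than in DMSO (log2 1.42, SE 0.088, adjusted p = 1.79e-08) and 5.12-fold higher in tozasertib (log2 2.36, SE 0.094, adjusted p = 3.89e-10). Between the drugs it was 1.92-fold higher in tozasertib (log2 0.94, SE 0.092, adjusted p = 2.12e-05).

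IRF9 (chr14:24161234-24168043, plus strand), the DNA-binding part of ISGF3, was at 43.4, 41.7, 32.2 and 36.0 CPM in DMSO, 75.8, 68.9, 51.7 and 52.3 in etoposide, and 134.3, 125.9 and 120.2 in tozasertib. Again no groups overlapped, and samples 1 and 2 lay above 3 and 4 in DMSO and in etoposide. IRF9 was 1.62-fold higher in etoposide (log2 0.70, SE 0.128, adjusted p = 0.000378), 3.31-fold higher in tozasertib (log2 1.73, SE 0.136, adjusted p = 1.84e-07) and 2.04-fold higher in tozasertib than in etoposide (log2 1.03, SE 0.133, adjusted p = 0.000251). The read-through gene ENSG00000259529, which joins RNF31 to IRF9 on the same strand, held 5.89% to 13.9% of the joint reads and was itself higher in etoposide (log2 0.88, adjusted p = 0.00279) and tozasertib (log2 1.05, adjusted p = 0.00112). RNF31, the neighbour upstream and a subunit of a ubiquitin ligase, was also higher in both (log2 0.28, adjusted p = 0.00621, and 0.65, adjusted p = 1.21e-05).

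IRF7 (chr11:612553-615983, minus strand), the regulator of interferon alpha and beta genes, was the least abundant of the 9 genes, at 2.49, 1.92, 1.99 and 2.53 CPM in DMSO, 2.67, 2.56, 1.75 and 1.99 in etoposide, and 6.07, 5.78 and 6.06 in tozasertib. The etoposide samples covered the range of the DMSO samples, and the 3 tozasertib samples stood above all others. These values rest on 54 to 75 reads a sample in DMSO, 57 to 109 in etoposide and 165 to 355 in tozasertib. The log2 fold change was 0.01 in etoposide (95% interval -0.37 to 0.39, adjusted p = 0.968) and 1.42 in tozasertib (2.67-fold, SE 0.167, adjusted p = 8.89e-06). The difference between the drugs was tested directly and was 1.41 (SE 0.166, adjusted p = 0.000115). STAT2 and IRF9 were thus higher under both drugs, whereas IRF7 was higher under tozasertib than under etoposide or DMSO.

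IRF1 (chr5:132440440-132508719, minus strand), a short-lived factor known to be induced by interferon gamma, went the other way. It was at 48.1, 52.1, 43.1 and 39.4 CPM in DMSO, 39.2, 40.4, 35.5 and 34.9 in etoposide, and 39.1, 40.7 and 37.1 in tozasertib. DMSO 1, 2 and 3 stood above all drug samples, while DMSO 4 lay among them. IRF1 is short, at the 32.1st percentile of effective length, and the part of the length gradient in this spread was not tested. The log2 fold change was -0.28 (SE 0.085, adjusted p = 0.0117) in etoposide, and -0.23 (SE 0.092, adjusted p = 0.0469) in tozasertib, a call that was lost in 9 of 20 other settings and stood at -0.42 with length-scaled counts (adjusted p = 0.00616). Among these were the fits without DMSO 1 (-0.21, adjusted p = 0.0656), DMSO 2 (-0.16, adjusted p = 0.138), etoposide 1 (adjusted p = 0.0522), etoposide 3 (adjusted p = 0.0521), tozasertib 1 (adjusted p = 0.0966), tozasertib 2 (adjusted p = 0.0634) and tozasertib 4 (adjusted p = 0.139).

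The opposite strand of the IRF1 locus behaved differently from IRF1. IRF1-AS1, an antisense long noncoding RNA, was at 1.87, 2.06, 2.31 and 1.08 CPM in DMSO, 5.18, 3.73, 2.99 and 3.67 in etoposide, and 8.57, 7.11 and 7.17 in tozasertib. Its groups did not overlap. It was 2.13-fold higher in etoposide (log2 1.09, SE 0.221, adjusted p = 0.000854) and 4.17-fold higher in tozasertib (log2 2.06, SE 0.227, adjusted p = 4.85e-06), with 0.97 between the drugs (adjusted p = 0.0101). The library kit keeps strand, but whether the quantification used it is not given in the sources used here, so reads of a gene and its antisense partner may not be fully separated.

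**Figure D2:**
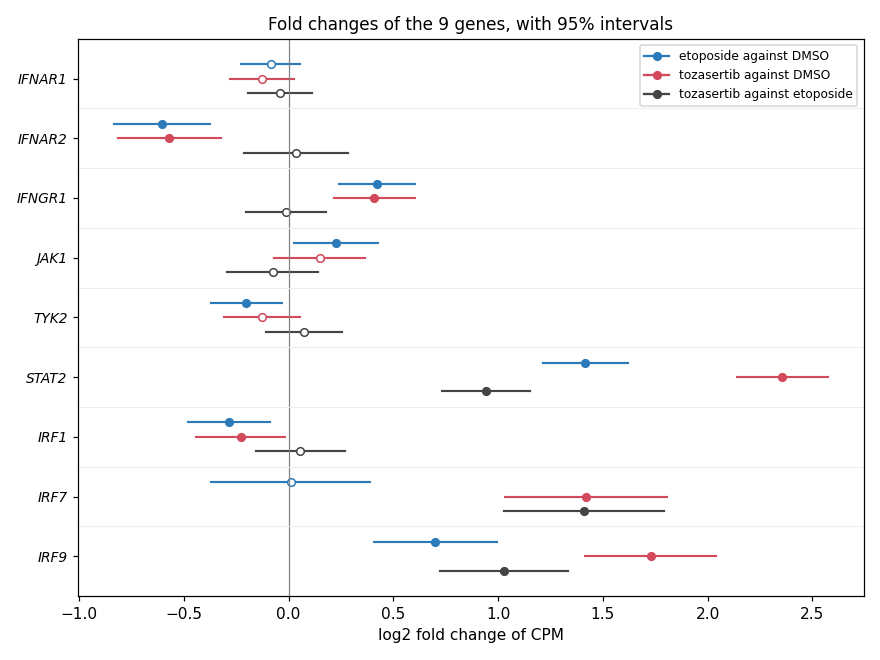
Log2 fold changes (points) of the 9 genes with 95% intervals (lines) for etoposide against DMSO, tozasertib against DMSO and tozasertib against etoposide, filled where the adjusted p was below 0.05. Only STAT2, IRF7 and IRF9 have filled points for the difference between the drugs, at 0.94, 1.41 and 1.03.

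Levels of different genes are compared per length, in TPM. In DMSO the order was JAK1 at 68.7 ± 12 TPM (SD, n = 4), IRF1 at 46.7 ± 8.13, TYK2 at 44.8 ± 2.11, IFNAR1 at 33.1 ± 8.07, IRF9 at 32.6 ± 3.48, STAT2 at 26.5 ± 2.51, IFNGR1 at 15.9 ± 3.19, IFNAR2 at 12.1 ± 1.84 and IRF7 at 1.71 ± 0.211. Neighbours in this order overlapped between samples except TYK2 and IFNAR1, STAT2 and IFNGR1, and IFNAR2 and IRF7. In etoposide STAT2 at 77.4 ± 13.1 TPM and IRF9 at 59.0 ± 9.87 came next after JAK1 at 85.3 ± 3.08, with overlap between each pair of neighbours. In tozasertib STAT2 was first at 154 ± 7.77 TPM (SD, n = 3) and IRF9 next at 128 ± 6.38, both above JAK1 at 83.8 ± 2.47 with no overlap. STAT2 and IRF9 thus passed from the middle of the set in DMSO to its top in tozasertib, while IRF7 at 6.11 ± 0.0834 TPM and IFNAR2 at 9.84 ± 1.18 stayed at its foot.

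The reads of each gene were spread over several annotated transcripts, and the split was uneven between replicates. The transcript of STAT2 that is chosen as its reference coding form (MANE Select) held 18.4%, 35.5%, 49.5% and 59.1% of the gene's TPM in DMSO 1 to 4, the same order as the length gradient of those samples, and 48.4% ± 10.2 in etoposide and 44.8% ± 2.19 in tozasertib. The reference coding transcript of IRF9 held 67.1% ± 6.68 in DMSO, 69.0% ± 4.07 in etoposide and 65.5% ± 1.44 in tozasertib, so its share moved by less than the spread in DMSO. The retained-intron transcript of TYK2 with the most reads held 10.8% to 16.8% of TYK2 in DMSO, 19.5% to 26.0% in etoposide and 16.2% to 29.8% in tozasertib. A JAK1 transcript with no defined coding sequence held 31.8% to 63.8% of JAK1 in DMSO, 31.1% to 36.8% in etoposide and 29.2% to 33.2% in tozasertib. These shares are estimates that depend on how reads are divided between similar transcripts, and they were not tested.

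The genes whose CPM followed each member most closely over the 11 samples, among 10802 protein-coding genes, were found by Pearson's r of log2 CPM. Samples of a group share their treatment, so these values describe mainly the order of the groups. STAT2 was followed by TMEM140 (r = 0.996) and GBP3 (0.992), an interferon-inducible GTPase. IRF9 was followed by IFI27 (0.993), RNF31 (0.992) and ISG15 (0.992), a ubiquitin-like modifier, and IRF7 by PLSCR1 (0.987), SAMHD1 (0.985), a dNTP hydrolase that restricts viruses, and CMPK2 (0.984). Closest to the receptor chains were TTC33 for IFNAR1 (0.972), TMA16 for IFNAR2 (0.971) and TRIM32 for IFNGR1 (0.981), and closest to the kinases ZHX1 for JAK1 (0.987) and AASS for TYK2 (0.95). IRF1 was followed most closely by HES1 (0.948), a target of Notch signalling. Between members, r was 0.958 for STAT2 with IRF9, 0.89 for IRF7 with IRF9 and -0.842 for STAT2 with IFNAR2.

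Of 17 other receptor chains, kinases, STATs and IRFs, 11 had enough reads to be tested. In etoposide 4 rose and 3 fell, in tozasertib 4 rose and 3 fell, and between the drugs 3 were higher in tozasertib and the other 8 did not pass, with median log2 fold changes of 0.01, 0.13 and 0.18. Across all genes tested, 27.7% were called higher and 30.6% lower in etoposide, and 29.9% and 29.4% in tozasertib. Between the drugs 5.66% were called higher in tozasertib, so the counts against DMSO lie near the shares of all genes.

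STAT3, which serves interleukin-6 family receptors, rose under both drugs, by 0.42 (adjusted p = 4.62e-06) and 0.43 (adjusted p = 8.01e-06), with 0.01 between them (SE 0.050). STAT4, low at 0.245 CPM in DMSO, rose by 0.96 (adjusted p = 0.0178) and 1.62 (adjusted p = 0.000677). STAT6, the factor of interleukin-4 signalling, rose in tozasertib (0.25, adjusted p = 0.001) and was at 0.01 in etoposide, and the drugs differed by 0.24 (adjusted p = 0.0086). STAT5B fell in both (-0.63, adjusted p = 5.75e-06, and -0.48, adjusted p = 0.00014), and STAT5A passed in neither, with -0.01 and 0.65. IL10RB, the chain that interferon lambda and interleukin-10 receptors share, rose in etoposide (0.30, adjusted p = 0.00232), with 0.13 in tozasertib (adjusted p = 0.162).

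Among the other IRFs, IRF2, which can oppose IRF1 at its sites, fell by 0.71 in etoposide (adjusted p = 5.77e-07) and by 0.28 in tozasertib (adjusted p = 0.00343) on the log2 scale and was 0.44 higher in tozasertib than in etoposide (adjusted p = 0.00105). IRF3, the constitutive factor upstream of interferon beta, did not pass the test in any comparison, at 64.7 ± 10.8 CPM in DMSO, 65.1 ± 8.09 in etoposide and 61.4 ± 2.24 in tozasertib. IFNLR1, the chain that binds interferon lambda, and IRF4, IRF5 and IRF8 had too few reads to be tested, with group means of 0.0679 CPM or less.

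**Figure D3:**
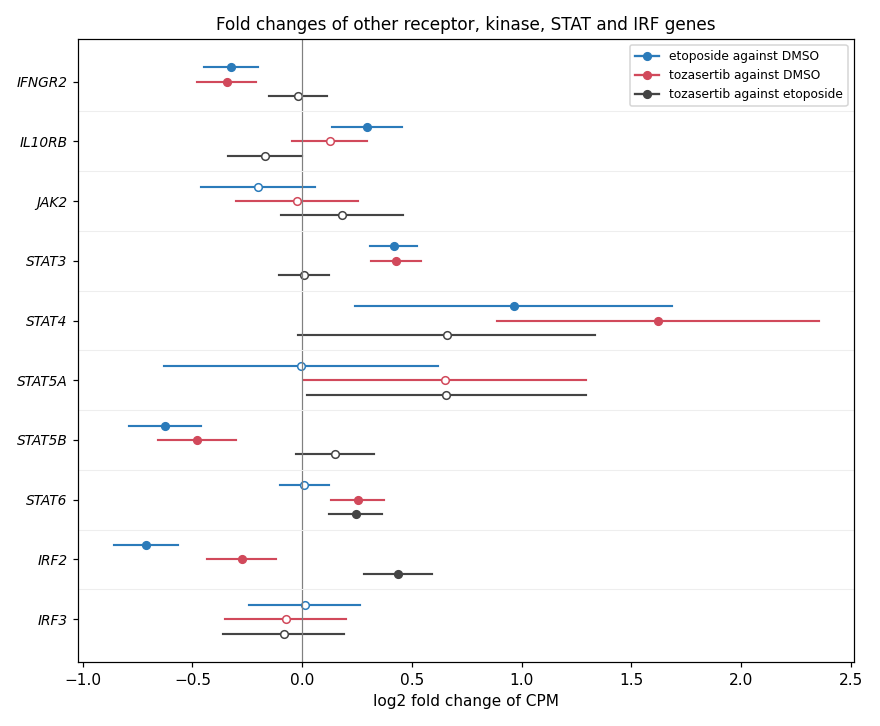
Log2 fold changes with 95% intervals of 10 other receptor, kinase, STAT and IRF genes that could be tested, filled where the adjusted p was below 0.05. Of the genes drawn, STAT4 lies farthest to the right against DMSO, at 0.96 and 1.62, and IRF2 and STAT5B lie to the left for etoposide at -0.71 and -0.63.

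Of 8 kinases and adaptors that act before the IRFs, 3 rose and 4 fell in etoposide (median log2 fold change -0.12), and 5 rose and 1 fell in tozasertib (median 0.20). Between the drugs 3 were higher in tozasertib and the other 5 did not pass. The shares of all genes called higher and lower were 27.7% and 30.6% in etoposide and 29.9% and 29.4% in tozasertib. Between the drugs 5.66% of all genes were called higher in tozasertib. MYD88, the adaptor through which Toll-like receptors reach IRF7, rose by 0.26 in etoposide (adjusted p = 0.00131) and by 0.85 in tozasertib (adjusted p = 6.55e-08), with 0.58 between the drugs (adjusted p = 3.23e-05). TBK1, a kinase of IRF3 and IRF7, rose by 0.28 (adjusted p = 0.00101) and 0.47 (adjusted p = 2.95e-05). IKBKE, its relative, fell by 0.20 in etoposide (adjusted p = 0.0433) and rose by 0.23 in tozasertib (adjusted p = 0.0311), and the drugs differed by 0.43 (adjusted p = 0.00489). These are RNA levels, and phosphorylation of the kinases or of the IRFs was not measured.

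Of 18 feedback and negative regulators 5 rose and 6 fell in etoposide, 5 rose and 6 fell in tozasertib, and 3 were higher in tozasertib than in etoposide. The medians were 0.00, 0.05 and 0.02. The shares of all genes called higher and lower were 27.7% and 30.6% in etoposide and 29.9% and 29.4% in tozasertib, with 5.66% higher between the drugs. USP18, which blocks signalling at IFNAR2, was at 3.03 ± 0.804 CPM in DMSO, 3.88 ± 1.28 in etoposide and 35.2 ± 2.43 in tozasertib, a log2 fold change of 0.37 in etoposide (adjusted p = 0.172), 3.54 in tozasertib (adjusted p = 1.65e-08) and 3.17 between the drugs (adjusted p = 5.67e-07). ISG15, which stabilises USP18, rose by 1.69 (adjusted p = 2.71e-05) and 4.03 (adjusted p = 1.69e-08). TRIM21, a ubiquitin ligase of IRFs, was at -0.01 in etoposide (adjusted p = 0.921) and rose by 1.03 in tozasertib (adjusted p = 3.3e-07), the same pattern as USP18 and IRF7. SOCS1, a kinase inhibitor, rose in etoposide (0.82, adjusted p = 0.00869) and was at 0.58 in tozasertib (adjusted p = 0.0622), and SOCS3 fell in tozasertib (-0.39, adjusted p = 0.0104). PIAS3, an inhibitor of STAT3, fell in both (-0.38, adjusted p = 7.51e-05, and -0.33, adjusted p = 0.000553), and the phosphatase PTPN1 rose in both (0.32, adjusted p = 0.000925, and 0.28, adjusted p = 0.0033).

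Genes known as outputs of these factors were also compared, and whether these factors drove them here was not measured. Of 16 type I interferon output genes 15 could be tested, of which 13 rose in etoposide and 15 in tozasertib. All 15 tested were higher in tozasertib than in etoposide, and the medians were 2.31, 4.60 and 2.92. Of all genes tested, 27.7% were called higher in etoposide, 29.9% in tozasertib and 5.66% in tozasertib against etoposide. The summed level of the 16 genes was 149.4 to 162.0 CPM in DMSO, 323.1 to 612.1 in etoposide and 2753 to 2949 in tozasertib. IFIT2, an antiviral RNA-binding protein, was at 7.39 ± 0.232 CPM in DMSO, 36.8 ± 5.48 in etoposide and 179 ± 19.3 in tozasertib. CMPK2, a mitochondrial nucleotide kinase, and the antiviral GTPase MX1 did not pass the test in etoposide (0.05, adjusted p = 0.835, and 0.19, adjusted p = 0.531) and rose in tozasertib (2.89, adjusted p = 1.11e-08, and 1.28, adjusted p = 0.000558).

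Of 14 interferon gamma output genes 13 could be tested, of which 7 rose in etoposide and 13 in tozasertib, with medians of 0.62 and 1.53. Between the drugs 9 were higher in tozasertib and 1, CIITA, was lower (median 0.89). Of all genes tested, 27.7% were called higher in etoposide and 29.9% in tozasertib. Between the drugs 5.66% were called higher in tozasertib and 5.45% lower. GBP1, a GTPase of cell-autonomous defence, rose by 0.68 in etoposide (adjusted p = 0.000199) and 2.69 in tozasertib (adjusted p = 9.96e-10). CIITA, the activator of HLA class II genes, rose by 0.62 (adjusted p = 5.09e-07) and 0.42 (adjusted p = 4.18e-05), and the class II gene HLA-DRA rose by 0.47 (adjusted p = 0.000163) and 0.27 (adjusted p = 0.0122). The lists of outputs were drawn up from common knowledge with earlier results of these data known, so their direction is not independent evidence.

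Within the etoposide group STAT2, IRF9, IRF7 and the summed outputs put the samples in the same order, from etoposide 1 through 2 and 4 to 3. TYK2 and IRF1 were also higher in etoposide 1 and 2 than in 3 and 4, in another order, and the other 4 members did not divide the samples this way. For the outputs the sums were 612.1 and 522.9 CPM in etoposide 1 and 2 and 323.1 and 375.3 in etoposide 3 and 4. Most single outputs followed the order of the sums, but some did not, among them MX1, CMPK2 and IFI27. The share of reads from mitochondrial genes was 5.30% and 4.42% in etoposide 1 and 2 and 3.80% and 3.46% in 3 and 4, and its part in the order was not tested. In DMSO, where STAT2 ranged from 66.4 to 75.6 CPM, the summed outputs stayed within 149.4 to 162.0. The sum hides single outputs that varied in different directions between the DMSO samples. IFI27, on 5 to 31 reads, was at 1.07, 1.07, 0.498 and 0.169 CPM in DMSO 1 to 4, and CMPK2 at 3.11, 2.74, 3.36 and 3.47.

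**Figure D4:**
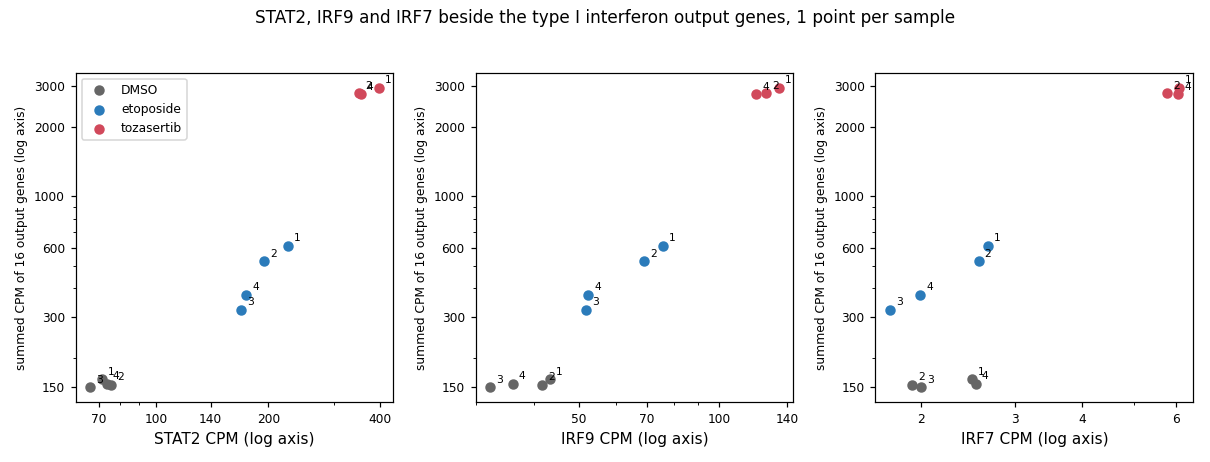
CPM of STAT2, IRF9 and IRF7 (horizontal, log axes) against the summed CPM of 16 type I interferon output genes (vertical, log axes), 1 point a sample with its number. The etoposide samples lie between DMSO and tozasertib for STAT2 and IRF9, at 323.1 to 612.1 CPM of outputs, but within or near the DMSO range of IRF7.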

How the data were processed

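RNA from the 11 samples was extracted with a column kit, enriched for polyadenylated RNA and made into directional libraries. Per the submitters' processing notes the tools were cutadapt 4.7, Salmon 1.9.0, R 4.4.2 and DESeq2 1.40.2, with build GRCh38. For the transcript set and strand setting of Salmon, values were not given in the sources used here. The authors deposited, for each sample, estimated counts, TPM and effective lengths of 251645 transcripts. Here the estimated counts were summed to GENCODE 44 genes by versioned transcript identifier. Of the transcripts 907 had no match, with 0.318% to 0.359% of the reads. The sums were rounded to whole numbers. The authors' TPM were summed likewise and used only for levels and transcript shares, with no test.

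Genes were filtered with filterByExpr and scaled by TMM, and group means over all 11 samples were fitted with edgeR 4.0.16 in R 4.3.3. The quasi-likelihood test was used with Benjamini-Hochberg adjustment over 17033 genes and a threshold of 0.05. The study's methods use DESeq2, which is an alternative here (version 1.42.0). Standard errors were taken as the absolute log2 fold change over the square root of F, and 95% intervals use 8 degrees of freedom. Fits were also run on counts simulated from the fitted spread, with few changed genes and no length gradient. That run does not cover the many changed genes and the length gradient of these data. Pattern likeness used log2(CPM + 0.5) and genes with a mean of at least 5 CPM. Motifs were searched in RefSeq promoter windows.

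The members and lists were chosen with earlier results of these data known. Named were all 9 members, the tested genes among the other receptors, kinases, STATs and IRFs, and up to 4 genes with the smallest adjusted p from each other list. IRF1-AS1, ENSG00000259529, IFNAR2-IL10RB and RNF31 were named for their position, and SOCS1, SOCS3, CMPK2 and MX1 after their values were seen. A few genes that the rule would name are not reported here, though counts over lists include them. Tozasertib replicate 3 was not analysed here.

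Replicates of a group differed by a mean chi-square of 4.02 to 70.1 per gene, so no library was counted as deposited more than 1 time. Alternatives were DESeq2, its size factors in edgeR, library size alone, no filter, a replicate block, only the groups compared, length-scaled counts, DMSO 1 and 4 both left out and each sample left out in turn. Adding the read-through reads to IRF9 and IFNAR2, and fitting the drug samples alone with a replicate block, were chosen after seeing the data. Deviations from group means correlated at 0.118 to 0.355 in the 3 same-numbered pairs of etoposide and tozasertib samples, all over 0.1. Other-numbered pairs of these groups ran from -0.338 to 0.244, the highest being etoposide 3 with tozasertib 4. For that fit the numbers were taken to pair the samples between the drugs. The pairing comes from the data, since the labels do not say what a number marks, and is not independent of the fit.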

Additional observations from a re-analysis of the deposited data

How the results depend on the processing

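Over the 27 comparisons of the 9 genes and 20 alternatives each against DMSO or 21 between the drugs, the side of the threshold held in 516 fits, a call was lost in 27 and gained in 6, and no called value changed sign. In 21 of the 27 comparisons no alternative changed the call, among them all those of IFNAR2, IFNGR1, STAT2, IRF7 and IRF9. The calls lost were those of JAK1 in etoposide (8 alternatives, adjusted p from 0.0139 to 0.0976 over all 20), TYK2 in etoposide (10, from 0.00393 to 0.145) and IRF1 in tozasertib (9, from 0.00616 to 0.203). Length-scaled counts brought TYK2 in tozasertib past the threshold (-0.49, adjusted p = 0.0114), and so did leaving out DMSO 1 and 4 for TYK2 (-0.20, adjusted p = 0.0454) and IFNAR1 (-0.16, adjusted p = 0.0331) in tozasertib. The causes were not tested. In the main fit 58.3% of all genes were called in etoposide and 59.2% in tozasertib against DMSO, and 11.1% between the drugs. The number of the 9 genes called stayed between 5 and 8 against DMSO for each drug and at 3 between the drugs. With a replicate block 7, 6 and 3 were called in the 3 comparisons, no call of the 9 genes changed by it, and over all genes 9848, 9794 and 1615 were called against 9930, 10092 and 1893 without the block. With DMSO the numbers were not taken to pair samples, since deviations correlated at -0.11 to 0.13 over 7 same-numbered pairs, 1 of them over 0.1. Over all groups, a sample correlated best with its own number in 9 of 20 combinations of a sample and another group. That count includes the combinations between the drugs, so it does not describe DMSO alone. Without DMSO 1 and 4, 7, 8 and 3 were called.

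Of all genes tested 1893 differed between the drugs, 50.9% of them higher in tozasertib, against 40.5% of the calls with DESeq2. The count was 3549 with only the groups compared, 4594 with these and a replicate block, 1119 with length-scaled counts and 3743 without DMSO 1 and 4, and it ranged from 1032 to 3395 when each sample was left out, lowest without tozasertib 1 and highest without DMSO 1. Scaling by library size alone moved the median of all genes in tozasertib against DMSO to 0.112, where IRF1 was at -0.14 (adjusted p = 0.203). Joining without identifier versions left the reads of all 22 interferon genes equal. Interferon genes at 0 are below the floor of 3 reads over a group and are not shown to be absent.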
